A study of Mus musculus with 2 samples.

Results

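The Iroquois homeobox family of the mouse, Irx1 to Irx6, was compared between the tooth and the skin of newborn wild-type animals. The members were every non-control probe of both arrays whose gene name was 1 of these 6 symbols. They came to 7 probes for 6 genes, of 55675 probes and 25004 named genes in all, and Irx2 alone had 2 probes. The P0 WT tooth group and the P0 WT skin group each held 1 Agilent gene expression array, hybridised with cRNA made from 50 ng of total RNA and labelled with Cy3. No treatment or altered allele was named for either group. The labels placed both tissues at postnatal day 0, but the study's methods describe tissues taken 1 day later, and the labels were followed. The tooth germ holds epithelium and mesenchyme together and the skin is a whole tissue as well, and the sources used here gave neither the number of animals behind an array nor the body site of the skin. Variation between animals could not be estimated from single arrays, so every difference given here is a value without a test, a p-value or a replicate check. In whole tissues, fewer cells of a type and less RNA per cell cannot be told apart.

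Iroquois proteins are transcription factors of the TALE class of homeodomain proteins, in which the homeodomain carries a short loop of extra residues. In the mouse the genes lie in a pair of clusters, with Irx1, Irx2 and Irx4 on chromosome 13 and Irx3, Irx5 and Irx6 on chromosome 8, and they are known for dividing developing tissues into territories, among them the neural plate, the heart and the limb. Irx4 is known as a gene of the ventricular heart muscle, Irx3 and Irx5 for their parts in cardiac conduction and limb patterning, and Irx5 and Irx6 as genes of bipolar cells of the retina.

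The probes that carried the measurements were DNA oligonucleotides of 60 bases. The first 30 bases of each are shown, 5′ to 3′, because every value of a member rests on these sequences, and their coordinates are those of the whole probe in mm9. No capitals are used, since no stretch within a probe was singled out.
Irx1 probe chr13:72095735-72095794 (minus strand): ctttgtttcttttttcccctttctgtatat
Irx2 probe chr13:72768784-72768843 (plus strand): cggggatgccttgtgcgaatcaggctcaga
Irx2 probe chr13:72771499-72771558 (plus strand): gatacctacggttccagtttattcacatag
Irx3 probe chr8:94322476-94322535 (minus strand): gtctgactctttttgtatatacgggaaaat
Irx4 probe chr13:73406712-73406771 (plus strand): aagatgagaagaccggagagcacagccgat
Irx5 probe chr8:94884923-94884982 (plus strand): tatggagatggatggcataaaaatgtatac
Irx6 probe chr8:95203880-95203939 (plus strand): caatcactgtgtaactttcttgctgaaatg
The longest run of bases shared by any pair of these probes, over their full length, was 8 bases. The GC content of the whole probes lay between 35.0% (Irx3, Irx5 and 1 Irx2 probe) and 55.0% (the other Irx2 probe). The exon or UTR under a probe was not analysed here.

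All 6 genes were measured in both tissues. The extraction software placed each of the 7 probes well above background on both arrays, and none was marked as an outlier or saturated. Irx2 and Irx4 were higher in skin, Irx5 and Irx6 were higher in tooth, and Irx1 and Irx3 each differed by less than 2-fold between the tissues. Differences are skin minus tooth on the log2 scale, after each array was set to its own 75th percentile (level 0). The error beside each value was the one given by the extraction software. It is mostly a preset 10% of the signal, it covers the spot and the scanner, and it leaves out the variation between animals and preparations.

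At least 2-fold higher in skin were 2 of the 6 members (33.3%), where 14.1% of the 17709 named genes well above background on at least 1 array passed this limit. At least 2-fold higher in tooth were 2 of the 6 members (33.3%), where 15.4% of all named genes did. At 4-fold the members were 2 higher in skin (Irx2 and Irx4, all genes 7.35%) and 1 higher in tooth (Irx6, all genes 6.25%). The median difference over the members was 0.26, with a range from -3.60 to 5.36, and the median over all named genes was -0.04. When the arrays were set level on their 8 spike-in transcripts instead, all differences moved toward tooth by 0.62, the shares of all genes past 2-fold became 8.96% for skin and 32.3% for tooth, the median of the members became -0.36, and the 2 and 2 members past 2-fold stayed on their sides.

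**Figure D1:**
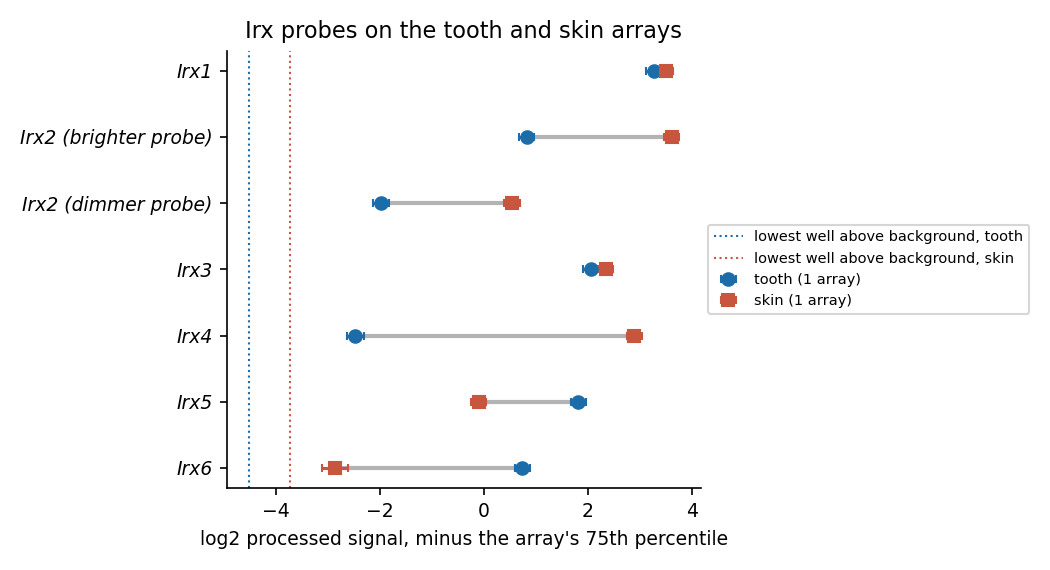
Level of each Irx probe in tooth and in skin, as log2 of the processed signal relative to the array's 75th percentile, with the software's error as bars, 1 array per tissue and dotted lines at the lowest signal well above background of each array. Irx2 and Irx4 lie higher in skin, Irx5 and Irx6 higher in tooth, and Irx1 and Irx3 nearly level, and levels may be read between tissues for a probe but not between probes.

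Among the members of the chromosome 13 cluster, Irx4 had the widest difference of the family. Its processed signals were 77.5 ± 8.93 for tooth and 2050 ± 205 for skin (software error), which are levels of -2.47 and 2.89. The skin level was thus higher by 5.36 ± 0.22 on the log2 scale, or 41.0-fold. The tooth signal was dim, at 4.14 times the lowest signal that was called well above background on that array, and the skin signal was 98.5 times the lowest of its array. The spot on the tooth array stood 4.05 times above its local background before correction. With another background correction (normexp) the difference was 4.40, or 21.2-fold, and with the spike-in scaling it was 4.73, or 26.6-fold. Of the 15510 named genes measured on both arrays, 120 had a larger difference toward skin.

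Irx2, the neighbour of Irx4 within this cluster, was read by 2 probes that lie 2655 bases apart. The brighter probe gave a signal of 761 ± 76.3 in tooth and 3377 ± 338 in skin, levels of 0.83 and 3.61, and a difference of 2.78 ± 0.20 or 6.87-fold. The dimmer probe gave 110 ± 11.7 and 403 ± 40.6, levels of -1.96 and 0.55, and a difference of 2.51 ± 0.21 or 5.70-fold. Both probes were higher in skin, and their differences lay 0.27 apart. Among the 3244 genes that had 2 probes measured on both arrays, the median of that gap was 0.26 and the 90th percentile 0.94, so the Irx2 probes lay about as close as is usual here. The brighter probe stood for the gene, and with the spike-in scaling its difference was 2.16, or 4.46-fold.

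Irx1, at the far end of the same cluster, gave a signal of 4129 ± 413 in tooth and 3131 ± 313 in skin. Its levels were 3.27 and 3.50 and the difference was 0.23 ± 0.20, or 1.18-fold. The signal itself was higher on the tooth array and the scaled level higher in skin, because the 75th percentiles to which the arrays were set were 428 in tooth and 276 in skin. The direction of Irx1 is therefore set by the scaling: the difference was -0.02 when the arrays were set to their medians and -0.39 on the spike-ins. The probe was bright in both tissues, at 221 and 151 times the lowest signal called well above background.

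In the chromosome 8 cluster, Irx6 differed most. It gave a signal of 716 ± 71.8 in tooth and 38.1 ± 6.53 in skin, levels of 0.74 and -2.86. The tooth level was higher by 12.1-fold, a difference of -3.60 ± 0.29. The skin signal was the weakest of any member on either array relative to the array's own limit, at 1.83 times the lowest signal called well above background and 2.45 times its local background before correction. The normexp correction gave -2.30, or 4.92-fold, and the spike-in scaling -4.23, or 18.7-fold, all higher in tooth. Of the named genes measured on both arrays, 129 had a larger difference toward tooth.

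Irx5 gave a signal of 1508 ± 151 in tooth and 258 ± 26.2 in skin, levels of 1.82 and -0.10. Its difference of -1.91 ± 0.21 was 3.77-fold toward tooth. Both signals were clear of the limit, at 80.6 times the lowest signal called well above background in tooth and 12.4 times in skin. The normexp correction hardly moved Irx5 (-1.81), and the spike-in scaling gave -2.54, or 5.81-fold.

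Irx3, the remaining gene of this cluster, gave a signal of 1781 ± 178 in tooth and 1408 ± 141 in skin. Its levels were 2.06 and 2.35 and its difference 0.29 ± 0.20, or 1.22-fold. Like Irx1, it had the higher signal on the tooth array and the higher scaled level in skin, and its difference was 0.04 with the median scaling and -0.33 on the spike-ins. Irx1 and Irx3 thus stayed within 2-fold in every setting tried and had no settled direction.

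Ordered by difference from skin to tooth, the family ran Irx4, Irx2, Irx3, Irx1, Irx5 and Irx6. The steps between neighbours in this order were 2.58 ± 0.30 from Irx4 to Irx2, 2.49 ± 0.29 from Irx2 to Irx3, 2.15 ± 0.29 from Irx1 to Irx5 and 1.69 ± 0.35 from Irx5 to Irx6, where each error combines the software's errors of both genes. The step from Irx3 to Irx1 was 0.06 ± 0.29, which is within that error. The order was the same in the 4 alternatives that changed the value of every member (median, spike-in and quantile scaling and the normexp correction), of which the median and the spike-in scaling shift all genes alike and could not have changed it. The step from Irx5 to Irx6 ranged most, from 0.49 to 1.79 over the settings. From Irx4 to Irx6 the family spanned 8.96 ± 0.36 on the log2 scale, and 6.70 to 8.98 over the settings.

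**Figure D2:**
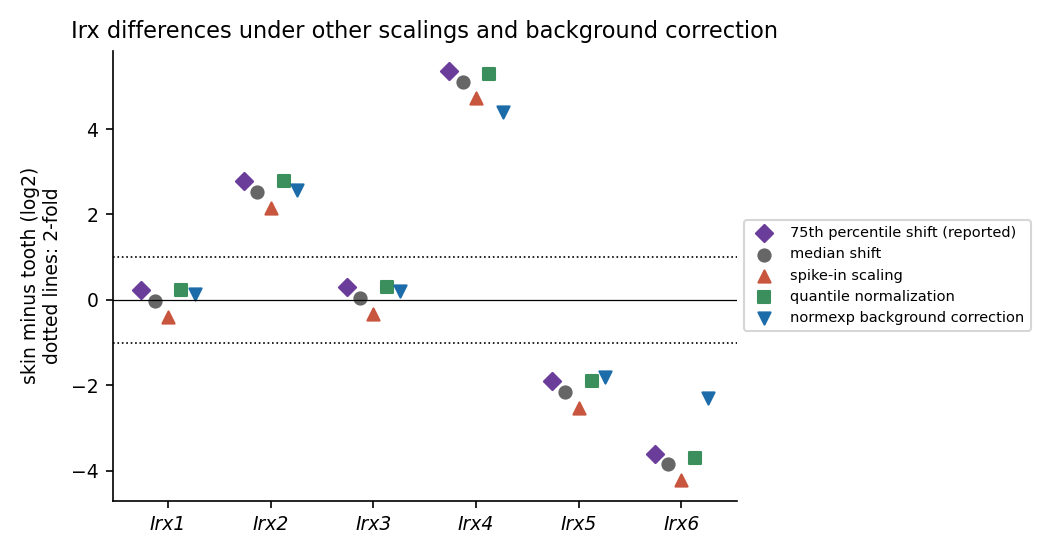
Skin minus tooth difference (log2) of each Irx gene under the processing settings that change the value of a single probe, with dotted lines at 2-fold. Irx2 and Irx4 stay past 2-fold toward skin and Irx5 and Irx6 past 2-fold toward tooth in each setting, and Irx1 and Irx3 lie about 0.

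The members past 2-fold lay toward skin in 1 cluster and toward tooth in the other. The 3 genes of the chromosome 13 cluster had a median difference of 2.78, with 2 past 2-fold toward skin and Irx1 near level. The 3 genes of the chromosome 8 cluster had a median of -1.91, with 2 past 2-fold toward tooth and Irx3 near level. Over all named genes 14.1% passed 2-fold toward skin and 15.4% toward tooth, and over the other homeobox genes of the array 32.4% and 30.6%. With 3 genes per cluster, whether the side goes with the cluster was not tested. Within each cluster 1 gene at an end of the cluster was near level, Irx1 on chromosome 13 and Irx3 on chromosome 8. The probes of Irx1 and Irx2 lie 676 kb apart in mm9 and those of Irx2 and Irx4 lie 635 kb apart. On chromosome 8 the probes of Irx3 and Irx5 lie 562 kb apart and those of Irx5 and Irx6 lie 319 kb apart.

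The sequence before the start of a gene is shown for Irx2, Irx3 and Irx4, the members for which RefSeq promoter sequences were at hand (3 of 6), and they include both genes past 2-fold toward skin and 1 gene near level. The lines give the 250 bases upstream of the RefSeq start in GRCm38.p6, 5′ to 3′ on the strand of the gene. Capitals mark the GC box (GGGCGG or its reverse complement CCGCCC) and the CCAAT box (CCAAT or ATTGG), and a TATA box (TATAAA or TTTATA) was searched for in the same way.
Irx2 upstream chr13:72628570-72628819 (plus strand): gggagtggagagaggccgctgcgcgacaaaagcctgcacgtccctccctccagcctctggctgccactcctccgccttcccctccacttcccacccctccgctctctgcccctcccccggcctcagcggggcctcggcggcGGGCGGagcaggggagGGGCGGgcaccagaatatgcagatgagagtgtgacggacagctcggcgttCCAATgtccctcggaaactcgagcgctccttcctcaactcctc
Irx3 upstream chr8:91801655-91801904 (minus strand): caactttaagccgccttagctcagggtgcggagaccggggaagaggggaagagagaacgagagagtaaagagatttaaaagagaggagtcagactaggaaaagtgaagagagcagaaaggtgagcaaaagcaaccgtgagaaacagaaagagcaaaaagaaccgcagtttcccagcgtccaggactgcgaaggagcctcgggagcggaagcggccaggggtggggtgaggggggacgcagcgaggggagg
Irx4 upstream chr13:73260247-73260496 (plus strand): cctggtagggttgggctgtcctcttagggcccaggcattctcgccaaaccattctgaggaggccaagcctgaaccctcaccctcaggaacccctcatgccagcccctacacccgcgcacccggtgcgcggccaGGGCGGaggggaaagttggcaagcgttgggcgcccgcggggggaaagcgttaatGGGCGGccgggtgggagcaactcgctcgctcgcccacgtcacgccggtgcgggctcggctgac
Irx2 held 2 GC boxes and 1 CCAAT box, Irx4 held 2 GC boxes, and Irx3 held none of these motifs in this window. None of the 3 held the TATA letters. Over 32851 promoters of the same length, 32.7% held a GC box, 33.8% a CCAAT box and 12.4% a TATA box on either strand. The windows held 19 CpG in Irx2, 13 in Irx3 and 22 in Irx4, against a median of 6 over all promoters. These counts lay at percentiles 80.3, 68.5 and 85.2 of all promoters, so that of Irx3 was not unusual. Their GC content was 68.4%, 56.0% and 68.8%, against a median of 52.4%. The arrays measured RNA only, and these matches describe letters and not binding.

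Genes that lie near a member were read on the same arrays. In the chromosome 13 cluster, the named genes between the members were Gm20554, which neither array had well above background, and 4930555K05Rik, whose signal passed that limit in skin alone and was at least 3.15-fold higher there. The long non-coding probes between the members that were measured on both arrays were dim, with levels from -3.77 to -2.38. Their differences were 0.46 at chr13:72757829-72760679, and 0.32 and 0.42 at chr13:72906878-72923790. On the far side of Irx4 lay Ndufs6, which encodes a subunit of mitochondrial complex I, with levels of 6.29 and 6.53 and a difference of 0.23, and Mrpl36, a mitochondrial ribosomal protein gene, with a difference of 0.18. Both became negative with the median and the spike-in scalings (Ndufs6 -0.02 and -0.39, Mrpl36 -0.07 and -0.44). Ndufs6 and Mrpl36 were thus near level where Irx4 differed by 5.36, while 4930555K05Rik, on the other side of Irx4, lay toward skin as Irx4 did. No named gene of the array had a probe within 1 Mb on the Irx1 side.

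In the chromosome 8 cluster, neighbours lay on both sides. Crnde, a long non-coding RNA gene transcribed away from Irx5, had a tooth level of -0.32 and a skin level of -2.23 and was 3.76-fold higher in tooth (-1.91). Its probe, which spans 18.5 kb of the genome, ends 16.2 kb from that of Irx5, whose own difference was -1.91, and the normexp correction gave -1.17 for Crnde. The array also carried 5 probes for the reverse strand of chr8:94841965-94881130, the stretch beside Irx5 that includes Crnde. Of these, 3 were well above background on both arrays, with differences from -1.21 to -0.29, and 1 of the array's probes there shares 47 bases with the Crnde probe, so these are not wholly separate readings. On the forward strand of the same stretch, 1 of 5 probes was measured on both arrays, with a difference of 0.82.

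Beyond Irx6 lay Mmp2, which encodes a gelatinase of the extracellular matrix, with levels of 3.60 and 1.91 and a difference of -1.69 or 3.23-fold toward tooth. On the side of Irx3 lay Fto, an RNA demethylase gene whose introns are known for contacts with Irx3, with levels of 2.14 and 1.38 and a difference of -0.75. Rpgrip1l, a gene of the ciliary transition zone beyond Fto, had -0.98 and -2.09, a difference of -1.11 or 2.16-fold (-0.63 with the normexp correction). BC100534 and D230002A01Rik, which lie 6.37 kb and 7.17 kb from the Irx3 probe, had differences of 0.68 and 0.82. The direction was not shared by all of the region, since Capns2, a calpain subunit gene beyond Mmp2 that was picked out after its values were seen, was 50.9-fold higher in skin (levels -2.84 and 2.83). Within 1 Mb of the chromosome 8 cluster, 15 probes of named genes were measured on both arrays, of which 5 passed 2-fold toward skin and 3 toward tooth. Toward skin these were Capns2, Lpcat2 (2.29), Slc6a2 (2.18), Gm6658 (2.13) and Gm19958 (1.14, but 0.51 on the spike-ins). Toward tooth they were Crnde, Mmp2 and Rpgrip1l. Around the chromosome 13 cluster there were 14, with 1 and 3. Of all named genes measured on both arrays, 11.4% passed 2-fold toward skin and 12.2% toward tooth.

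**Figure D3:**
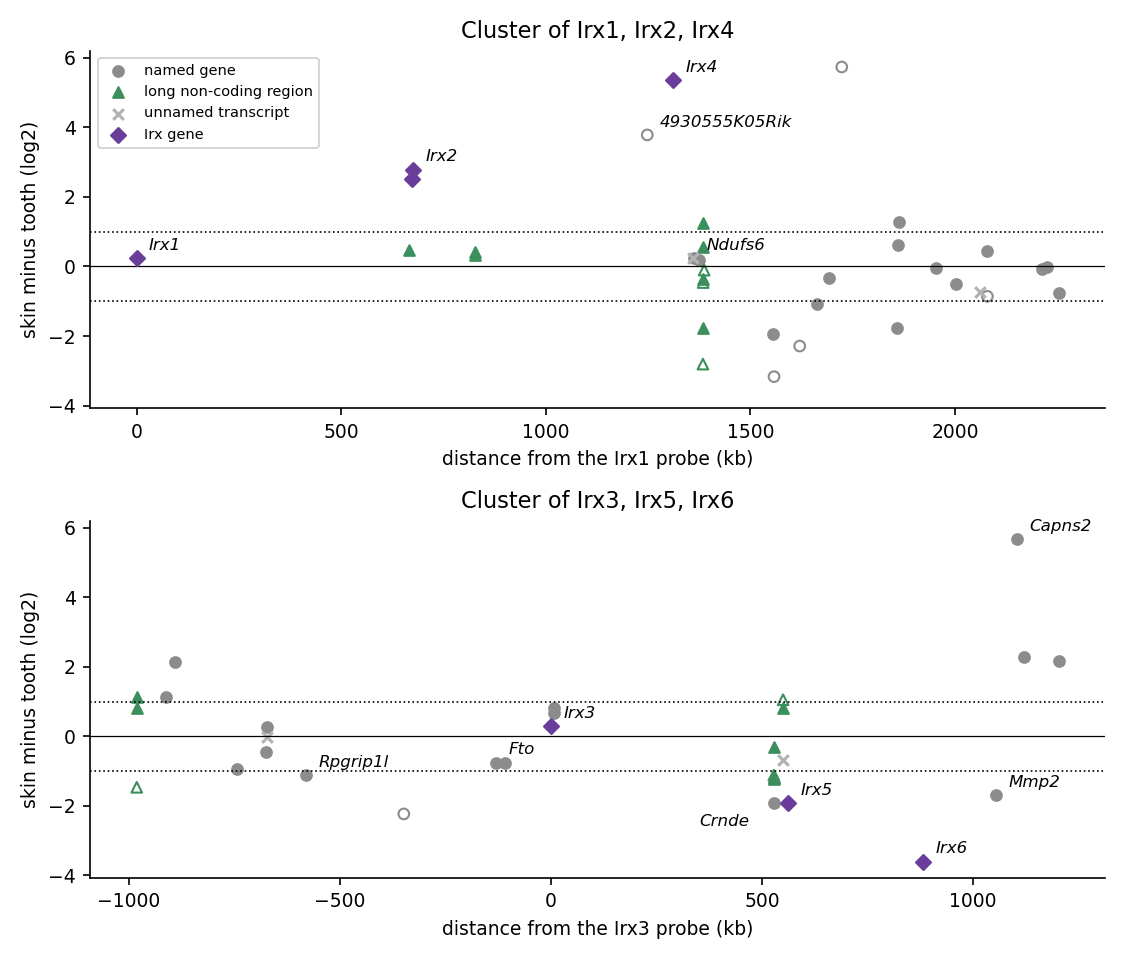
Skin minus tooth difference (log2) of each probe in and within 1 Mb of the Irx clusters against its distance in kb from the Irx1 probe (upper panel) or the Irx3 probe (lower panel), with dotted lines at 2-fold and open symbols for probes well above background on 1 array only. Irx4 and Irx2 stand above the other probes of the chromosome 13 cluster that were measured on both arrays. On chromosome 8, Irx5, Irx6, Crnde and Mmp2 lie below 0 and Capns2 lies far above it. The unlabelled Lpcat2, Slc6a2, Gm6658 and Gm19958 also lie above 0.

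The other homeobox genes of the array spread as widely as the Irx genes did. The array named 183 of them, and 108 passed the same background limit as all genes. The median of their differences was 0.21, with quartiles of -1.56 and 1.91, against quartiles of -0.57 and 0.48 over all named genes. Toward skin, 35 of them (32.4%) passed 2-fold, and toward tooth 33 (30.6%), shares close to the 33.3% each way of the Irx members. With the spike-in scaling the median of the other homeobox genes was -0.41 and their shares were 25.9% and 37.0%. Of the 108, 71 were measured on both arrays and could be ranked. Among these, 1 had a larger difference toward skin than Irx4 and 6 than Irx2. Toward tooth, 5 had a larger difference than Irx6 and 14 than Irx5.

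**Figure D4:**
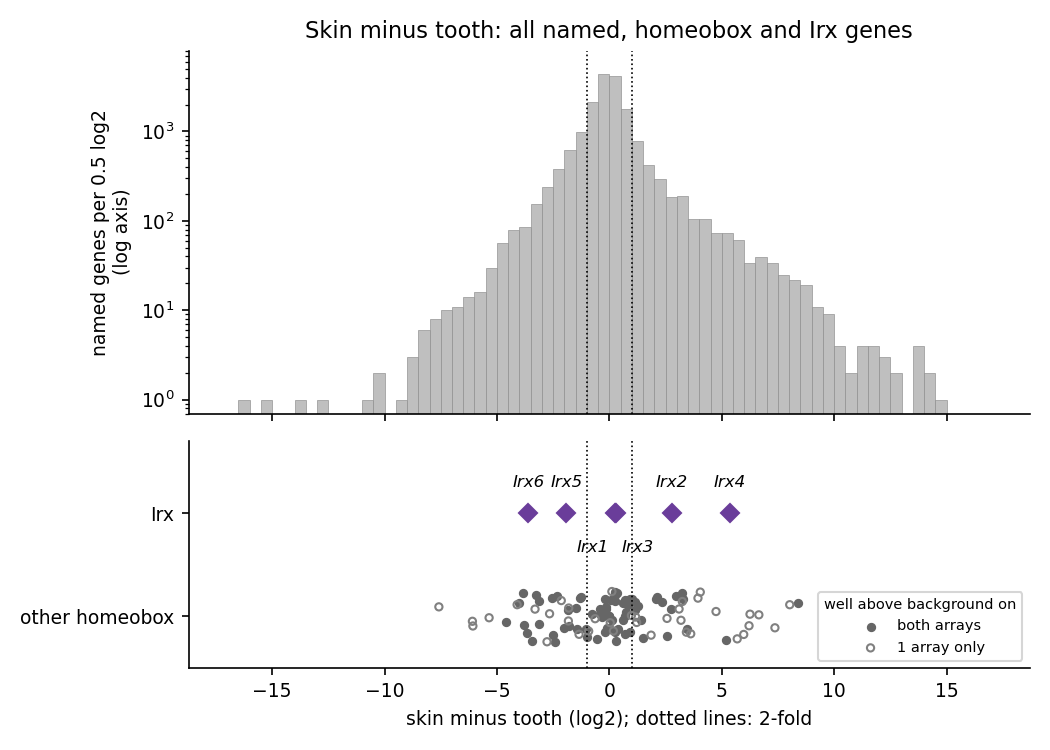
Upper panel, number of named genes per 0.5 of skin minus tooth difference (log2), on a log axis. Lower panel, the 6 Irx genes and the 108 other homeobox genes on the same scale, with filled points for genes well above background on both arrays and open points for 1 array only, and both sets reach well past the dotted lines at 2-fold.

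For 5 of the members, the homeobox gene with the nearest difference is given, chosen by this closeness alone over the 2 arrays. Nearest to Irx4 was Hoxc13, a gene known for hair shaft and nail differentiation, whose tooth level of -2.46 and skin level of 2.75 gave a difference of 5.20. Nearest to Irx2 was Msx3, with -3.61 and -0.86 and a difference of 2.74. Nearest to Irx5 was Hoxb3, with -0.83 and -2.68 and a difference of -1.85. Meis1 (0.24) was nearest to Irx1, and Rhox10 (0.30) to Irx3. These matches depend on the probe taken: with the mean of a gene's probes Msx3 was at 0.34, Hoxb3 at -0.53 and Rhox10 at 3.63, far from Irx2, Irx5 and Irx3, while Hoxc13 and Meis1 stayed at 5.20 and 0.24. With the normexp correction Msx3 was at 1.65 and Hoxb3 at -0.85. With 2 arrays a match of this kind rests on a single difference.

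The TALE class holds further families beside the Irx genes: Meis, Pbx and Pknox proteins, which bind DNA together with Hox proteins, Tgif proteins, known as repressors in TGF-beta signalling, and Mkx, a gene of tendon. Of the 12 genes listed, 11 entered, and Pbx4 was left out because neither array had it well above background. The median of the 11 differences was -0.19. Past 2-fold toward skin was 1 gene (9.09%), Meis2, and past 2-fold toward tooth were 3 (27.3%), Meis3, Pknox2 and Mkx, while 7 lay within 2-fold. Over all named genes the shares were 14.1% toward skin and 15.4% toward tooth, and over the other homeobox genes 32.4% and 30.6%. With 11 genes, a tilt of the class to either side was not tested. Meis2 had levels of -1.61 and -0.11 and a difference of 1.50, or 2.83-fold (0.88 on the spike-ins, where it was within 2-fold). Meis3 had 3.55 and 0.98 at its brightest probe, a difference of -2.57 or 5.94-fold, but its other probes gave -0.77 and -0.22. Mkx and Pknox2 had no skin signal well above background, and their tooth signals were higher by at least 9.78-fold for Mkx and at least 2.21-fold for Pknox2.

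Among the genes of this class within 2-fold were Meis1 (0.24), Pbx2 (-0.19), Pbx3 (-0.22), Pknox1 (0.25), Tgif1 (0.12) and Tgif2 (-0.98). The positive values of Meis1, Pknox1 and Tgif1 were negative with the spike-in scaling (Meis1 -0.39, Pknox1 -0.37, Tgif1 -0.50). At its brightest probe Tgif2 passed 2-fold toward tooth with the median (-1.23), spike-in (-1.61) and quantile (-1.09) scalings, which raised the count toward tooth from 3 to 4 genes. Its other probes gave 0.26 and, with tooth alone well above background, -0.71. The mean of its probes gave -0.48 and the normexp correction -0.40. Of the genes of this class measured on both arrays, none had a difference as wide as that of Irx4 or Irx6, except that Meis3, at -2.57, was wider than Irx6, at -2.30, with the normexp correction.

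**Figure D5:**
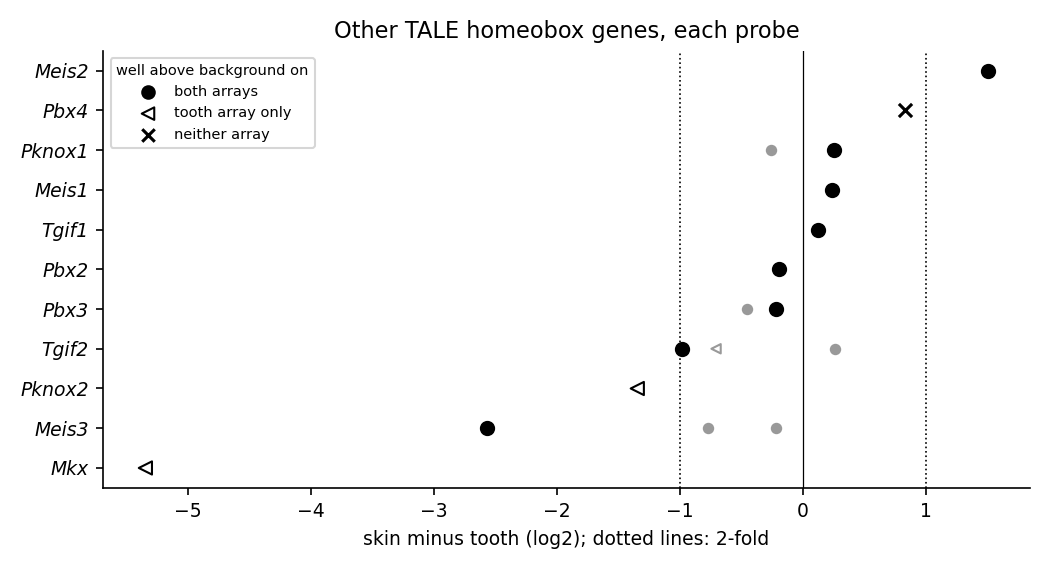
Skin minus tooth difference (log2) of 11 other TALE-class homeobox genes, 1 row per gene, with black symbols for the gene's brightest probe, gray symbols for its other probes and dotted lines at 2-fold. Most genes lie within 2-fold. Mkx and Pknox2, well above background in tooth only, and Pbx4, on neither array, are drawn at their measured values.

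Markers of the cells that each tissue holds were read beside these values, as the sum of the scaled linear signals of each list. Ameloblast markers summed to 2150 in tooth, with 5 of 5 well above background, and to 0.0954 in skin, with 0 of 5. Odontoblast and bone markers summed to 343 and 0.652 (5 and 2 of 5). Epidermal markers summed to 528 in tooth and 4780 in skin, with 6 of 6 well above background in both. Most of the tooth sum came from Krt5 and Krt14 (tooth levels 8.82 and 6.11), which were 1.92-fold and 2.29-fold higher in skin. Krt1, Krt10, Lor and Flg were 337-fold to 7614-fold higher in skin. Hair follicle markers summed to 2.18 and 759 (3 and 4 of 4, Krt25 not in tooth). Melanocyte markers were 2.30 and 173 (4 and 5 of 5, Tyrp1 not in tooth), muscle markers 3.45 and 28.4 (4 and 5 of 6, Myod1 in neither and Myog not in tooth), and fat markers 1.80 and 16.4 (2 and 5 of 5, with Adipoq, Plin1 and Cidec not in tooth). Mesenchymal markers were 1280 and 221 (4 of 4 in both), and cartilage markers 3.71 and 0.347 (3 and 2 of 4, Matn1 in neither and Col2a1 not in skin). Of the cartilage genes measured on both arrays, Acan was 2.58-fold higher in tooth and Col9a1 1.63-fold higher in skin. Schwann cell markers summed to 8.38 and 6.67 (4 and 3 of 4), with Sox10 9.27-fold higher in skin and Mbp 2.03-fold higher in tooth. Endothelial markers summed to 30.6 and 38.1 (4 and 3 of 4), but Cdh5 was 6.50-fold and Tek at least 2.77-fold higher in tooth, and the median difference of the list was -0.83. Each tissue thus carried the markers of its label. By their sums, epidermal, hair follicle, melanocyte, muscle and fat markers were on the side of Irx2 and Irx4. The sums of ameloblast, odontoblast, cartilage and mesenchymal markers were on the side of Irx5 and Irx6, with Col9a1 the other way. The part of these markers in the differences of the Irx genes was not tested.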

How the data were processed

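Total RNA of 1 tooth and 1 skin sample was measured on single-colour Agilent arrays of 60-base probes, both on 1 slide. The deposited spot values are linear intensities made, per the file headers, with Agilent Feature Extraction (version 10.7.3.1), with background and within-array trends removed by the software and very dim values replaced by surrogates (22.8% of non-control spots in tooth, 25.5% in skin), which makes values near background imprecise. The authors also deposited a table of processed intensities as a ratio to 1 factor per array (431 for tooth, 275 for skin), with medians of 0.081 and 0.0989. This table is linear and not centred by gene. The study's methods named GeneSpring, removal of very low signals and a percentile shift.

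From the 62976 spots, 3671 controls were left out, as were spots marked as outliers (137 in tooth, 146 in skin). No spot was saturated. The log2 processed signals of a probe's spots were averaged and the array's 75th percentile subtracted. Probes well above background made up 56.7% in tooth and 52.5% in skin, and 0 and 1 of 308 negative-control spots were so called. A gene was represented by its brightest probe over both arrays and entered when either array had that probe well above background. If the other array did not, the fold is a bound against the lowest signal well above background there (log2 -4.52 in tooth, -3.73 in skin) or the probe's own value if higher. Probes with at least 8 spots had a median SD among spots of 0.08 in tooth and 0.09 in skin (log2). The number of arrays limits the precision.

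Names came from the array, updated through RefSeq accessions of GRCm38.p6 (80.4% of 33881 named probes matched), and probe coordinates are in mm9. The members and lists were chosen with earlier results of these data known. The named genes were the members, the TALE list, cluster neighbours, the homeobox gene nearest in difference to each member, and the markers. Some genes that this rule names are not reported here. Alternatives changed the scaling (median, spike-ins, quantile), the background correction (normexp, offset 50), the source table, the probe rule, the filter and the fold limit. Python 3.11.15 with numpy 2.4.6 and pandas 2.3.3, and R 4.3.3 with limma 3.58.1, were used, and the scripts were tested on simulated data.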

Additional observations from a re-analysis of the deposited data

How the results depend on the processing

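Of 133 values recomputed under alternatives, 105 moved by less than the software's error or by at most 1.5 times for counts and shares, and 28 moved by more. None (0) were counted as reversed, although Irx1, Irx3, the Irx median and the TALE median changed sign. All of these were within 2-fold throughout. The Irx median went from 0.26 to -0.36 on the spike-ins, and the TALE median from -0.19 to 0.12 with both arrays required well above background. The median scaling gave an Irx median of 0.0137, a TALE median of -0.44, and -0.0162 for Irx1, 2.53 for Irx2, 0.0437 for Irx3, 5.11 for Irx4 and -2.16 for Irx5. The spike-in scaling gave an Irx median of -0.36, a TALE median of -0.82 with 0 TALE genes past 2-fold toward skin, 8.96% and 32.3% of all genes past 2-fold toward skin and tooth, and -0.39 for Irx1, 2.16 for Irx2, -0.33 for Irx3, 4.73 for Irx4, -2.54 for Irx5 and -4.23 for Irx6. These scalings shift every gene by the same amount. The normexp correction gave 9.53% of all genes past 2-fold toward tooth, 4.40 for Irx4 and -2.30 for Irx6, the members with the dimmest spots. Requiring both arrays well above background left a TALE median of 0.12 and 1 TALE gene past 2-fold toward tooth, since Mkx and Pknox2 no longer entered. At 4-fold, 1 Irx gene toward tooth and 0 TALE genes toward skin remained counted, with 7.35% and 6.25% of all genes. The other Irx2 probe, an alternative chosen after seeing the data, gave 2.51. Irx2, Irx4, Irx5 and Irx6 stayed past 2-fold on their sides in the 4 alternatives that changed every member's value. Another 4 (the authors' table and the filter settings) left all member values as they were, and the mean of probes changed Irx2 alone. These 4 could not have moved a member. The authors' table holds the same signals over 1 factor per array, and every member was well above background on both arrays. Their unchanged member values are among the 105. No paired analysis was possible because each tissue had 1 array, and for the same reason no array could be left out.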

Other observations

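Farther from the Irx genes on chromosome 13, within 1 Mb of Irx4, genes lay on both sides. Slc6a19, an intestinal and renal amino acid transporter gene, was at least 14.3-fold higher in skin, the only tissue with a signal well above background. Lpcat1, a phospholipid acyltransferase gene, and Slc6a3, the dopamine transporter gene, had such a signal in tooth alone at their brightest probes and were at least 8.99-fold and 4.57-fold higher there, but the other Lpcat1 probe was measured in both tissues with a difference of -1.94. Slc12a7, a potassium chloride cotransporter gene, was measured in both and was 3.44-fold higher in tooth (levels 1.30 and -0.48, difference -1.78), though neither tissue had its other probe well above background and the mean of both probes gave -0.94, which is within 2-fold. These genes were picked out after their values were seen.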
